A study of Rattus norvegicus with 25 samples.

Results

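The 8 genes described here mark inhibitory interneurons and were followed through postnatal life in the prefrontal cortex of the rat: Gad1, Gad2, Pvalb, Calb1, Calb2, Sst, Vip and Cck. They were taken by Ensembl gene ID, and all 8 IDs were found among the 29516 gene IDs of the deposited table. RNA sequencing had been done on medial prefrontal cortex of wild-type Wistar rats at postnatal days 8, 14, 21, 35 and 70 (P8 to P70). There were 25 libraries, 5 for each age, with no treatment and no other genotype, and the question was how transcript levels differ between these ages. Whether the libraries of an age are separate animals is not stated, and p-values therefore refer to the spread among these libraries, which may be technical. Sex and pooling of animals are not stated either. The pairing of ID and gene name is that of the list, since the files hold no gene names and 0 of the table's IDs were found in the reference table. All 8 genes passed the filter on low values, at least 1 FPKM in at least 5 libraries, which left 14128 gene IDs for testing.

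GABA is the main inhibitory transmitter of the cortex, and interneurons make it from glutamate with the glutamic acid decarboxylases GAD67 and GAD65, the products of Gad1 and Gad2. Cortical interneurons fall into classes with different electrical behaviour and different targets, and calcium-binding proteins and neuropeptides serve as their usual markers. Pvalb marks the fast-spiking basket and chandelier cells, Sst marks cells that contact dendrites, and Vip marks cells that mostly contact other interneurons. Calb1, Calb2 and Cck label further, partly overlapping classes. Calb1 and Cck transcripts are also known from excitatory cortical neurons and Calb2 from Cajal-Retzius cells, so their levels in whole tissue belong to more than interneurons. In whole tissue, fewer cells of a type and less RNA per cell cannot be told apart. The lists of further interneuron genes and of markers of other cell types are kept by gene name, and so were not analysed here.

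RefSeq promoter windows, from 250 bases before to 50 bases after the annotated start in build GRCr8, were matched by name for 5 of the 8 genes (Gad1, Gad2, Pvalb, Sst and Vip). The 3 below are shown because they are the class markers among those 5, and because cyclic AMP response elements are a known feature of neuropeptide promoters. Capitals mark the 5 bases TGACG on either strand, the core of that element. The windows lie at chr7:111666240-111666539 on the minus strand for Pvalb, at chr11:90461296-90461595 on the plus strand for Sst and at chr1:44470230-44470529 on the plus strand for Vip.
Pvalb: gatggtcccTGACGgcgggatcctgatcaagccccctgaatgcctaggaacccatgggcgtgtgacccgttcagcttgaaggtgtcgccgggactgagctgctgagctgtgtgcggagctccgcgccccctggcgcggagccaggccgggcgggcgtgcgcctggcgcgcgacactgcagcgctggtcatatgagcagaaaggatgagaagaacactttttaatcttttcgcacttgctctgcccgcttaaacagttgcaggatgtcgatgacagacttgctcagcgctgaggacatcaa
Sst: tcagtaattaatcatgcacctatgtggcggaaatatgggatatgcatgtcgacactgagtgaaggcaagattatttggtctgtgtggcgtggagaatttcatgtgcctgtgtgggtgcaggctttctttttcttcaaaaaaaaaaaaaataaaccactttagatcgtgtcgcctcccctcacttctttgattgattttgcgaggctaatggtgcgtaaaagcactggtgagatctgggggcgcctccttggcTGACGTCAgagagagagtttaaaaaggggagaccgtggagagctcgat
Vip: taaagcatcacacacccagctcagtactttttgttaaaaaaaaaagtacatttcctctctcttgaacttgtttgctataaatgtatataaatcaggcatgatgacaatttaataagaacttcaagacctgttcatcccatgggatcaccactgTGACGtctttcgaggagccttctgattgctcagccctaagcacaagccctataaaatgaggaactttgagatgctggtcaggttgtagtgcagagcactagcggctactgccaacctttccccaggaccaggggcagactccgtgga
The complete palindrome TGACGTCA, in which TGACG occurs once on each strand, was found in the Sst window alone among the 5, starting at base 253 of the window. That position lies past the 250 bases before the annotated start, so the match is downstream of this start. It occurs in 1.83% of all 33469 RefSeq windows of this length. TGACG on either strand was found in the windows of Pvalb, Sst and Vip and not in those of Gad1 and Gad2, against 21.2% of all windows. TATAAA on either strand was found in the windows of Gad1 and Vip, against 14.2% of all. These are letter matches in fixed windows and no evidence of a factor's binding.

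Of the 8 genes, 7 differed over the 5 ages (limma moderated F-test, adjusted p under 0.05), against 55.5% of all gene IDs tested. Adjusted p ran from 1.05e-15 for Calb2 and 2.07e-15 for Pvalb to 2.31e-06 for Gad1, and only Sst did not pass, at 0.206. Sst did pass under quantile normalization (limma adjusted p = 0.0449) and with median-of-ratios scaling (0.0337), and with FPKM totals made equal Gad1 did not (0.125). Only 20 of the 14128 gene IDs had a larger F value than Calb2, and 24 had a larger one than Pvalb. From P8 to P70, 6 genes rose and Calb2 fell, where 19.9% of all gene IDs rose and 34.6% fell. The median log2 change of the 8 was 0.99, beside -0.16 for all gene IDs tested. Levels are given in FPKM, fragments per kilobase of transcript and per fixed number of mapped fragments, a unit per length in which different genes can be compared. Changes are differences of log2(FPKM + 0.5), which understate the change of a gene near 0. Each change has its SE and its p from limma, adjusted by the Benjamini-Hochberg method across the whole set of gene IDs tested.

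**Figure D1:**
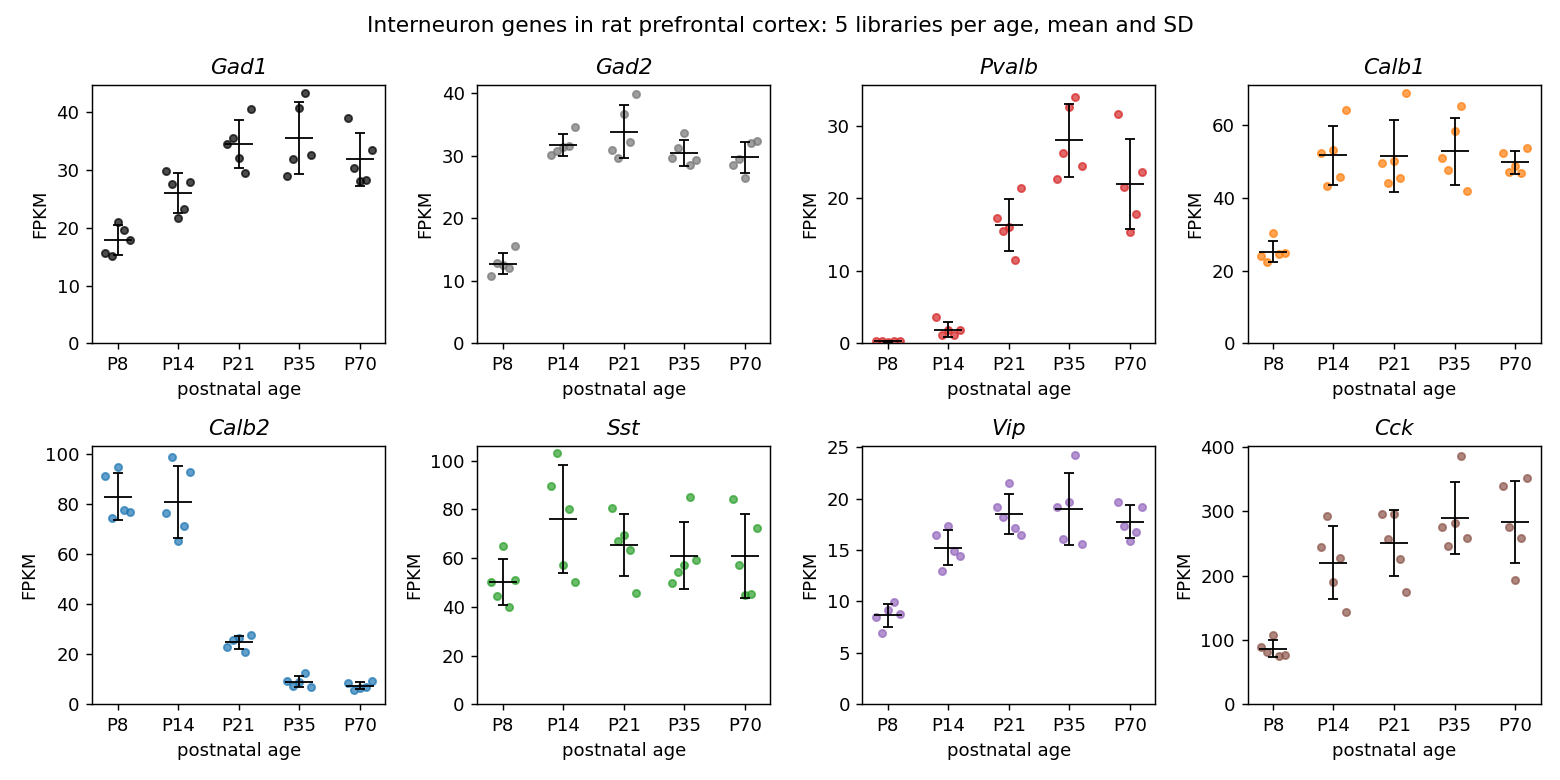
FPKM (y axis, from 0, its own scale in each panel) of the 8 genes at the 5 ages (x axis). Points are libraries in replicate order, bars the mean and SD of 5; Pvalb goes from under 0.4 FPKM in every P8 library to over 15 in every P70 library, and Calb2 goes from over 70 to under 10.

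Of the decarboxylases, Gad1 makes GAD67, which fills the cell body and supplies most of the GABA of the brain. Gad1 (ENSRNOG00000000007) was at 15.6, 15.1, 21.0, 19.6 and 17.9 FPKM in the P8 libraries and in the P14 libraries at 29.8, 27.5, 21.7, 23.2 and 27.8. All P14 libraries lay above all P8 libraries, though narrowly. At P21 they were at 34.5, 35.6, 32.0, 29.5 and 40.6 FPKM, at P35 at 29.0, 31.9, 40.7, 43.3 and 32.5, and at P70 at 38.9, 30.3, 28.1, 28.2 and 33.4. These last 3 ages overlapped throughout. Gad1 rose by 0.53 ± 0.13 log2 units (SE) from P8 to P14 (limma adjusted p = 0.00272) and by 0.40 ± 0.13 from P14 to P21 (limma adjusted p = 0.0322). Leaving out 1 library at a time kept the second of these rises at 0.34 to 0.45, but it did not pass without P14 replicate 3 or 4 or without P21 replicate 1, 2 or 5, where adjusted p was 0.0554 to 0.0857. It also did not pass with a random block for the first number of the library titles (0.38, adjusted p = 0.0893) or a fixed block for the second (0.36, 0.104), nor with FPKM totals made equal between libraries, where it was 0.08 (0.872). From P8 to P70 Gad1 rose by 0.81 ± 0.13 (limma adjusted p = 8.64e-06), from a mean of 17.9 ± 2.54 to 31.8 ± 4.55 FPKM (SD, n = 5).

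Gad2 (ENSRNOG00000018200) makes GAD65, the form held at nerve terminals, and passed the test at the first step only. The P8 libraries were at 10.8, 12.8, 12.6, 12.1 and 15.6 FPKM and the P14 libraries at 30.2, 30.8, 31.4, 31.6 and 34.7. Every P14 library lay far above the highest P8 library. Gad2 rose by 1.29 ± 0.09 log2 units from P8 to P14 (SE, limma adjusted p = 4.94e-10), and 113 of the 14128 gene IDs rose more. Later libraries stayed in one band, at 29.7 to 39.9 FPKM at P21, 28.6 to 33.8 at P35 and 26.4 to 32.4 at P70, and no later step passed the test. The P14 to P21 difference was 0.09 log2 units with a 95% confidence interval from -0.10 to 0.28 (limma adjusted p = 0.567).

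The balance of the Gad2 and Gad1 transcripts shifted between P8 and P14. The ratio of Gad2 to Gad1 FPKM, which does not depend on how a library is scaled, was 0.691, 0.853, 0.601, 0.614 and 0.868 in the P8 libraries. At P14 it was 1.01, 1.12, 1.45, 1.36 and 1.25, above all P8 libraries. Its mean went from 0.726 ± 0.128 to 1.24 ± 0.176 (SD, n = 5), and the log2 ratio rose by 0.76 (exact two-sided permutation test, p = 0.00794, the smallest that 5 against 5 libraries allow; adjusted p = 0.0227). Ratio tests used log2 ratios with 0.5 FPKM added to both genes, which leaves some dependence on scaling where a gene is near 0. They were adjusted over 40 comparisons, 8 ratios at 5 contrasts, of which 15 passed. The ratio was 0.992 ± 0.13 at P21, 0.879 ± 0.144 at P35 and 0.951 ± 0.144 at P70 (SD, n = 5). The difference from P14 to P21, -0.31 log2 units, did not pass (exact permutation test, adjusted p = 0.0722), nor did that from P8 to P70, 0.38 (adjusted p = 0.0828). Without P70 replicate 1 the latter was 0.47 and passed (exact permutation test, adjusted p = 0.0454).

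Among the calcium-binding proteins, Pvalb (ENSRNOG00000006471) had the largest change of the 8 genes. Parvalbumin is a calcium buffer, and its appearance in fast-spiking interneurons is a known mark of their postnatal maturation. The P8 libraries were at 0.339, 0.367, 0.146, 0.315 and 0.304 FPKM, all under the 1 FPKM of the filter, which Pvalb passed through the later ages only. The P14 libraries were at 3.61, 1.21, 1.80, 1.16 and 1.81 FPKM, all above P8, with replicate 1 well above the other 4. At P21 they were at 17.3, 15.4, 16.05, 11.5 and 21.4 FPKM, at P35 at 22.6, 26.2, 32.7, 34.0 and 24.5, and at P70 at 31.6, 21.6, 15.3, 17.8 and 23.6. No library overlapped with one of the age before until P70, whose libraries spread over both P21 and P35 levels.

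Pvalb rose by 1.53 ± 0.21 log2 units from P8 to P14 (SE, limma adjusted p = 7.20e-06) and by 2.86 ± 0.21 from P14 to P21 (limma adjusted p = 3.47e-09). Without P14 replicate 1 these rises were 1.32 and 3.07 and still passed. The step from P14 to P21 was larger in 15 of the 14128 gene IDs. From P21 to P35 the difference was 0.77 ± 0.21 log2 units (SE), and it narrowly missed the threshold (limma adjusted p = 0.0704) although no libraries overlapped. It passed after quantile normalization (adjusted p = 0.0268), after median-of-ratios scaling (0.0243), with a pseudocount of 1 (0.0447) and without P14 replicates 2 and 5 and P21 replicate 5 (0.0422). It lay further from the threshold with a pseudocount of 0.1 (0.134), with the random block (0.230), with the fixed block (0.462) and with FPKM totals made equal (1.00), while the difference stayed at 0.71 to 0.87 in these 8 settings. Over the whole span Pvalb rose by 4.79 ± 0.21 log2 units (SE, limma adjusted p = 1.27e-14), and 2 gene IDs rose more. Mean FPKM at P70 was 74.7 times that at P8, where the log2 scale with its added 0.5 FPKM gives 27.6-fold. By P14 Pvalb had covered 32% of its log2 change from P8 to P70, and by P21 91.6%. These percentages depend on the 0.5 FPKM added, since all P8 values lie below it. The step from P8 to P14 was 2.27 log2 units with a pseudocount of 0.1 and 1.12 with 1. Mean FPKM was 1.92 at P14, 16.3 at P21 and 22.0 at P70.

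Set against Gad1 in the same library, Pvalb rose at each of the first 3 steps. The Pvalb to Gad1 ratio had a P8 mean of 0.0172 ± 0.00666, a P14 mean of 0.0726 ± 0.031 and a P21 mean of 0.471 ± 0.0574 (SD, n = 5). Its P35 mean was 0.789 ± 0.0254 and its P70 mean 0.682 ± 0.0991 (SD, n = 5). The log2 ratio, with 0.5 FPKM added to both genes, rose by 1.00 from P8 to P14. It rose by 2.46 from P14 to P21 and by 0.73 from P21 to P35. Each rise was without overlap (exact permutation test, adjusted p = 0.0227 for each). The added 0.5 FPKM makes these rises smaller than those of the FPKM ratios, most of all the first. At P35 the ratio was nearly the same in every library, at 0.782, 0.822, 0.802, 0.785 and 0.754, while Pvalb itself ranged from 22.6 to 34.0 FPKM. Without P14 replicates 2 and 5 and P21 replicate 5, which leaves 3 libraries against 4, the rise from P14 to P21 was 2.22 and did not pass (exact permutation test, adjusted p = 0.0519). The libraries left did not overlap, and so few allow no smaller p in this test. With a pseudocount of 1 the first of these rises was 0.60 and did not pass (adjusted p = 0.0529). From P35 to P70 the log2 ratio differed by -0.22 and did not pass (exact permutation test, adjusted p = 0.0722). Without P70 replicate 1 it differed by -0.28 and passed (adjusted p = 0.0227).

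Calb1 (ENSRNOG00000007456) makes calbindin, another calcium buffer, and moved in a single step. The P8 libraries were at 24.1, 22.3, 30.2, 24.4 and 24.8 FPKM and the P14 libraries at 52.3, 43.2, 52.9, 45.5 and 64.0. All P14 libraries were above the highest of P8. Calb1 rose by 1.01 ± 0.13 log2 units (SE, limma adjusted p = 2.23e-06). Afterwards it kept its level, with means of 51.4 ± 9.9 FPKM at P21, 52.7 ± 9.11 at P35 and 49.6 ± 3.08 at P70 (SD, n = 5). None of the 3 later steps passed, and their differences were -0.01, 0.04 and -0.07 log2 units (limma adjusted p = 0.968, 0.957 and 1.00). Against Gad1 the log2 ratio rose by 0.48 from P8 to P14 (exact permutation test, adjusted p = 0.0227). It fell by 0.41 from P14 to P21 (exact permutation test, adjusted p = 0.0423), with overlap between the ages. This fall did not pass without any one of P14 replicates 3, 4 and 5 and P21 replicates 1, 2, 3 and 4 (adjusted p = 0.0529 to 0.0866).

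Calb2 (ENSRNOG00000016977), the gene of calretinin, fell, and passed the test only after P14. The P8 libraries were at 91.3, 74.4, 94.7, 77.6 and 76.9 FPKM and the P14 libraries at 76.3, 98.7, 65.3, 71.1 and 92.9. These ages overlapped fully, and their difference was -0.05 log2 units with a 95% confidence interval from -0.35 to 0.25 (limma adjusted p = 0.841). The P21 libraries were at 22.8, 25.5, 26.6, 20.9 and 27.6 FPKM, the P35 libraries at 9.47, 7.41, 9.06, 12.4 and 7.07, and the P70 libraries at 8.29, 5.83, 6.48, 6.78 and 9.47. Every P21 library lay below every P14 library, and every P35 library below every P21 library, while P35 and P70 overlapped.

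Calb2 fell by 1.68 ± 0.15 log2 units from P14 to P21 (SE, limma adjusted p = 3.92e-08), a step in which 16 of the 14128 gene IDs fell more. It fell by 1.41 ± 0.15 from P21 to P35 (SE, limma adjusted p = 5.68e-06), and 25 gene IDs fell more. With FPKM totals made equal between libraries, this second fall was -1.34 and did not pass (adjusted p = 0.298). From P8 to P70 Calb2 fell by 3.42 ± 0.15 log2 units (SE, limma adjusted p = 7.20e-15), from 83.0 ± 9.3 to 7.37 ± 1.48 FPKM (SD, n = 5), and 20 gene IDs fell more. The difference from P35 to P70, -0.28 ± 0.15, did not pass (limma adjusted p = 1.00). The ratio to Gad1 fell from 4.71 ± 0.727 at P8 to 3.11 ± 0.384 at P14, 0.72 ± 0.0668 at P21 and 0.257 ± 0.0476 at P35 (SD, n = 5), without overlap at any of these steps (exact permutation test, adjusted p = 0.0227 for each). Without P14 replicates 2 and 5 and P21 replicate 5 the fall from P14 to P21 was -1.95 log2 units and did not pass (adjusted p = 0.0519). The libraries left did not overlap, and so few allow no smaller p in this test. At P8 the mean FPKM of Calb2 was close to that of Cck, the highest of the 8 genes, and at P35 and P70 it was the lowest.

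**Figure D2:**
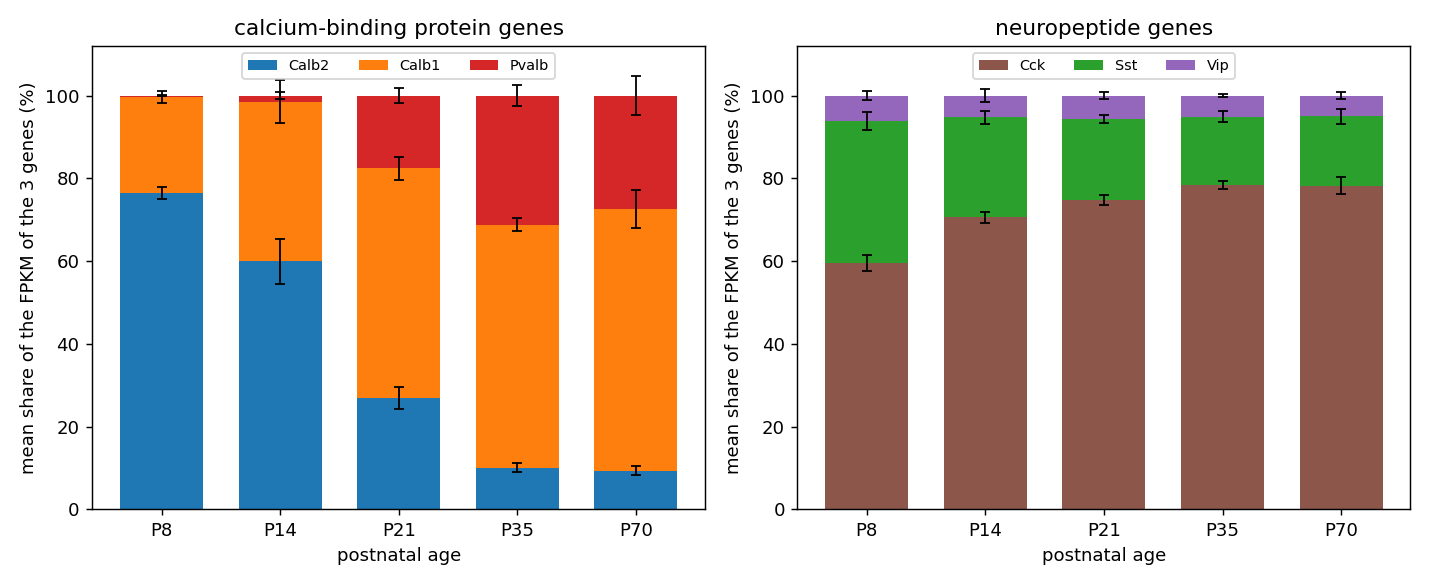
Mean share (y axis, percent) of each gene in the summed FPKM of the 3 calcium-binding protein genes (left) and of the 3 neuropeptide genes (right) at each age (x axis). Stacked segments are means of 5 libraries and each error bar is the SD of the segment whose top it crosses; Calb2 goes from 76.5% to 9.3% and Pvalb from 0.279% to 27.5% between P8 and P70.

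Within the summed FPKM of the 3 calcium-binding protein genes, Calb2 made up 76.5 ± 1.42% in the P8 libraries and 60 ± 5.45% in the P14 libraries (SD, n = 5). Its share was 26.9 ± 2.62% in the P21, 10.1 ± 1.11% in the P35 and 9.3 ± 1.11% in the P70 libraries (SD, n = 5). Calb1 held 23.2 ± 1.44% at P8 and 63.2 ± 4.6% at P70. Pvalb held 0.279 ± 0.0967% at P8 and 27.5 ± 4.72% at P70, with its highest mean at P35, 31.2 ± 2.45% (SD, n = 5). These shares compare transcripts per length and carry no test of their own. The 2 genes crossed late: Calb2 exceeded Pvalb in every library at P8, P14 and P21, and Pvalb exceeded Calb2 in every library at P35 and P70.

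Of the neuropeptides, Sst (ENSRNOG00000001837), the gene of somatostatin, did not pass the F-test over the 5 ages on the deposited scale. The P8 libraries were at 50.1, 44.2, 64.8, 39.9 and 51.2 FPKM and the P14 libraries at 89.7, 103, 57.0, 80.0 and 50.0. Of the P14 libraries, 3 lay above all of P8 and the other 2 within the P8 range. The later libraries were at 80.7, 67.1, 69.4, 63.5 and 45.7 FPKM at P21, at 49.6, 54.3, 57.0, 84.9 and 59.1 at P35, and at 84.3, 57.1, 45.0, 45.3 and 72.2 at P70. All ages overlapped with one another. The difference from P8 to P14 was 0.56 ± 0.21 log2 units (SE) and passed by a small margin (limma adjusted p = 0.0468). It did not pass without P8 replicate 1, 2, 4 or 5 or without P14 replicate 1, 2 or 4 (adjusted p = 0.0683 to 0.128), nor with that random block (0.153), the second title number as a fixed block (0.103), no filter on low values (0.0688) or the 10 libraries of these ages fitted alone (0.0705). From P8 to P70 the difference was 0.25 log2 units with a 95% confidence interval from -0.18 to 0.69 (limma adjusted p = 0.326). It passed after quantile normalization, at 0.47 (adjusted p = 0.0387), and after median-of-ratios scaling, at 0.42 (adjusted p = 0.0411).

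Within libraries Sst was set against Pvalb and Gad1. Pvalb against Sst rose by 3.05 log2 units from P14 to P21 and by 4.53 from P8 to P70, both without overlap (exact permutation test, adjusted p = 0.0227 for each). With 0.5 FPKM added to both genes, the rise from P8 is smaller than that of the FPKM ratios. Without P14 replicates 2 and 5 and P21 replicate 5 the rise from P14 to P21 was 2.71 and did not pass (adjusted p = 0.0519). The libraries left did not overlap, and 3 against 4 allow no smaller p in this test. From P35 to P70 the same ratio fell by 0.34 log2 units without overlap (exact permutation test, adjusted p = 0.0227), from 0.465 ± 0.0684 to 0.363 ± 0.0281 as a ratio of FPKM (SD, n = 5). That fall did not pass without P70 replicate 3 (adjusted p = 0.0595) or P70 replicate 5 (0.0705). Sst against Gad1 averaged 2.82 ± 0.463 at P8 and 1.88 ± 0.279 at P70 (SD, n = 5). This difference of -0.56 log2 units did not pass (exact permutation test, adjusted p = 0.0529), but it passed without P8 replicate 4 (adjusted p = 0.0265) or P70 replicate 1 (0.0454).

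Vip (ENSRNOG00000018808) makes vasoactive intestinal peptide and was the scarcest of the peptide genes at every age. Its P8 libraries were at 8.44, 6.94, 9.21, 9.91 and 8.75 FPKM, and its P14 libraries at 16.5, 12.9, 17.3, 14.9 and 14.5, all above P8. Vip rose by 0.78 ± 0.11 log2 units (SE, limma adjusted p = 1.28e-05). Its libraries spanned 16.4 to 21.5 FPKM at P21, 15.6 to 24.3 at P35 and 15.9 to 19.7 at P70. The step from P14 to P21, 0.27 ± 0.11, did not pass (limma adjusted p = 0.101), but it passed after quantile normalization, at 0.39 (adjusted p = 0.00386), and after median-of-ratios scaling, at 0.38 (0.00789). From P8 to P70 Vip rose by 1.00 ± 0.11 log2 units (SE, limma adjusted p = 8.14e-08). Against Gad1 it averaged 0.486 ± 0.039 at P8 and 0.563 ± 0.0335 at P70 (SD, n = 5), a log2 difference of 0.19 that did not pass (exact permutation test, adjusted p = 0.0529). It passed without P70 replicate 1, at 0.23 (adjusted p = 0.0353), and with a pseudocount of 0.1, at 0.21 (0.0373).

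Cck (ENSRNOG00000019321) makes cholecystokinin, one of the most abundant peptides of the cortex, and had the highest mean of the 8 genes at every age. At P8 its mean did not stand clear of that of Calb2, which was the higher of the pair in replicates 1, 4 and 5. The P8 libraries were at 89.2, 81.2, 108, 75.7 and 76.7 FPKM and the P14 libraries at 245, 293, 189.8, 227 and 143. All P14 libraries exceeded all P8 libraries. Cck rose by 1.32 ± 0.20 log2 units (SE, limma adjusted p = 1.82e-05), and 107 of the 14128 gene IDs rose more. Means were 250 ± 51.2 FPKM at P21, 289.6 ± 55.8 in the P35 and 283 ± 64.2 in the P70 libraries (SD, n = 5). No later step passed. From P8 to P70 it rose by 1.69 ± 0.20 log2 units (SE, limma adjusted p = 1.20e-07). Against Gad1 Cck also rose over this span, from a ratio of 4.87 ± 0.774 to 8.87 ± 1.31 (SD, n = 5; log2 difference 0.88, exact permutation test, adjusted p = 0.0227). From P8 to P14 alone this log2 ratio differed by 0.79, with overlap, and did not pass (exact permutation test, adjusted p = 0.0529). It passed without P14 replicate 2 (0.69, adjusted p = 0.0476) or replicate 5 (0.96, 0.0198), and without both and P21 replicate 5 (0.89, 0.0476). At P70 only 144 of the gene IDs tested had a higher mean than Cck. The share of Cck in the summed FPKM of the 3 peptides went from 59.5 ± 2% at P8 to 78.3 ± 1.95% at P70, and that of Sst from 34.4 ± 2.18% to 16.7 ± 1.84% (SD, n = 5).

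**Figure D3:**
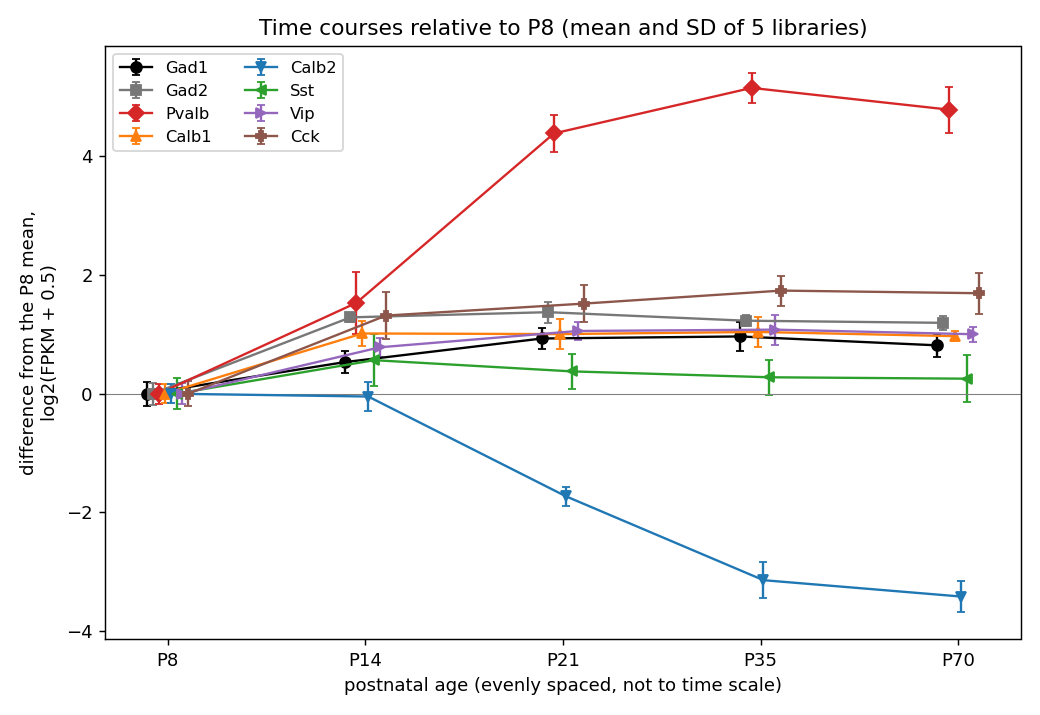
Difference of each gene from its own P8 mean (y axis, log2(FPKM + 0.5)) at the 5 ages (x axis, evenly spaced and not to time scale), mean and SD of 5 libraries. Pvalb climbs to 5.15 at P35, Calb2 goes to -3.42 at P70, and the other 6 genes lie between 0.25 and 1.74 from P14 on.

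Step by step, most of the changes that passed lay before P21. From P8 to P14 7 of the 8 rose and none fell, where 13.6% of all gene IDs rose and 28.9% changed either way (limma, adjusted p under 0.05). The 8 had a median log2 change of 0.90, beside -0.06 over all gene IDs tested. For 6 of them the libraries of P8 and P14 did not overlap, against 20.1% of gene IDs. With FPKM totals made equal, 4 of the 8 passed this step in place of 7, although the changes of the genes that no longer passed were larger: 0.79 for Gad1 (adjusted p = 0.219), 0.83 for Sst (0.280) and 1.03 for Vip (0.0701). From P14 to P21 Gad1 and Pvalb rose and Calb2 fell, 3 of 8, where 5.17% of all gene IDs rose, 12.2% fell and 17.4% changed either way. Libraries did not overlap for Pvalb and Calb2, against 13% of gene IDs. From P21 to P35 only Calb2 passed, 1 of 8, where 0.545% of gene IDs rose, 1.08% fell and 1.62% changed either way, and Pvalb and Calb2 did not overlap, against 3.68%.

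From P35 to P70 none of the 8 passed (limma, adjusted p under 0.05), where 0.0425% of all gene IDs rose, 0.0779% fell and 0.12% changed either way. Of the 8, 0 had an unadjusted p under 0.05. For none were the libraries of these ages free of overlap, against 1.02% of gene IDs. None passed in any of the alternative fits of this step. All 8 differences were below 0, from -0.02 for Sst to -0.37 for Pvalb. Their median was -0.07, beside -0.02 over all gene IDs tested. Without P35 replicate 4, Calb1 was at 0.0083, Sst at 0.10, Vip at 0.015 and Cck at 0.064, with the other genes still below 0. The sign of Gad2, Calb1, Sst, Vip and Cck turned with FPKM totals made equal, and that of Gad2, Calb1, Sst and Cck after quantile normalization. The 95% confidence interval reached from -0.81 to 0.07 for Pvalb and from -0.23 to 0.15 for Gad2. Over P8 to P70 libraries did not overlap for 7 of the 8, against 44% of gene IDs, and 54.5% of gene IDs changed either way.

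**Figure D4:**
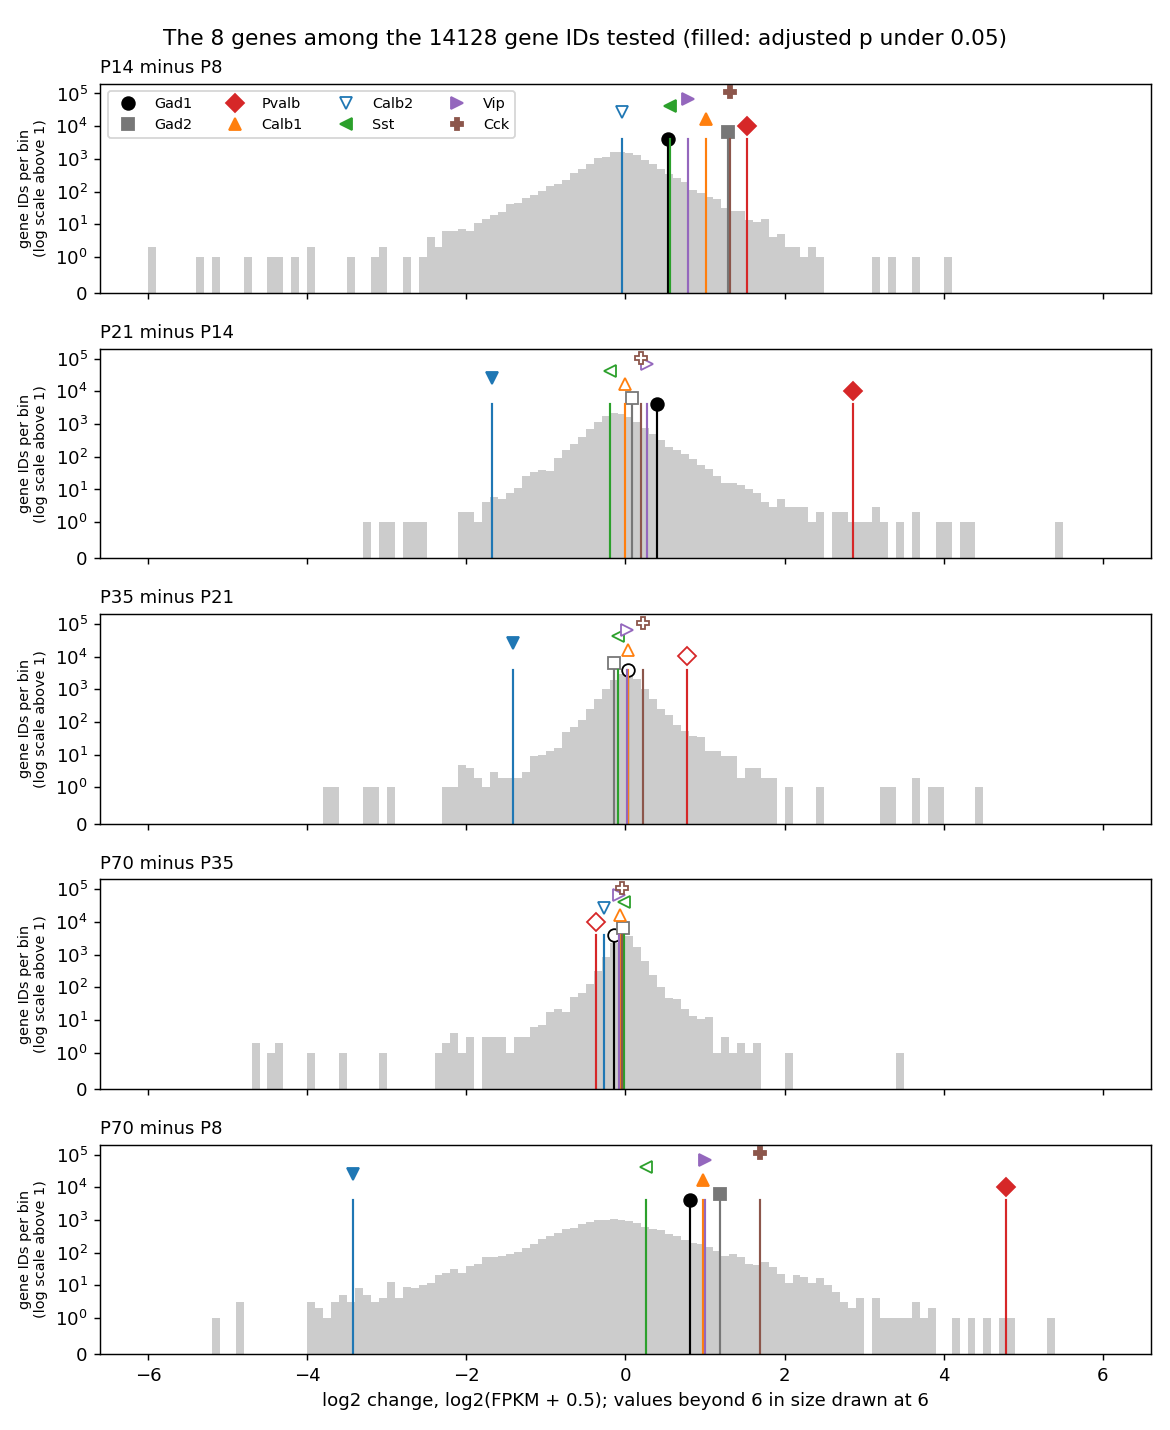
Log2 change (x axis) of the 14128 gene IDs tested, as grey bars counting gene IDs per bin of 0.1 (y axis, log scale above 1), in 5 contrasts. Coloured lines mark the 8 genes at arbitrary height, filled where adjusted p was under 0.05; Pvalb and Calb2 lie at opposite ends from P14 to P21 and from P8 to P70.

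**Figure D5:**
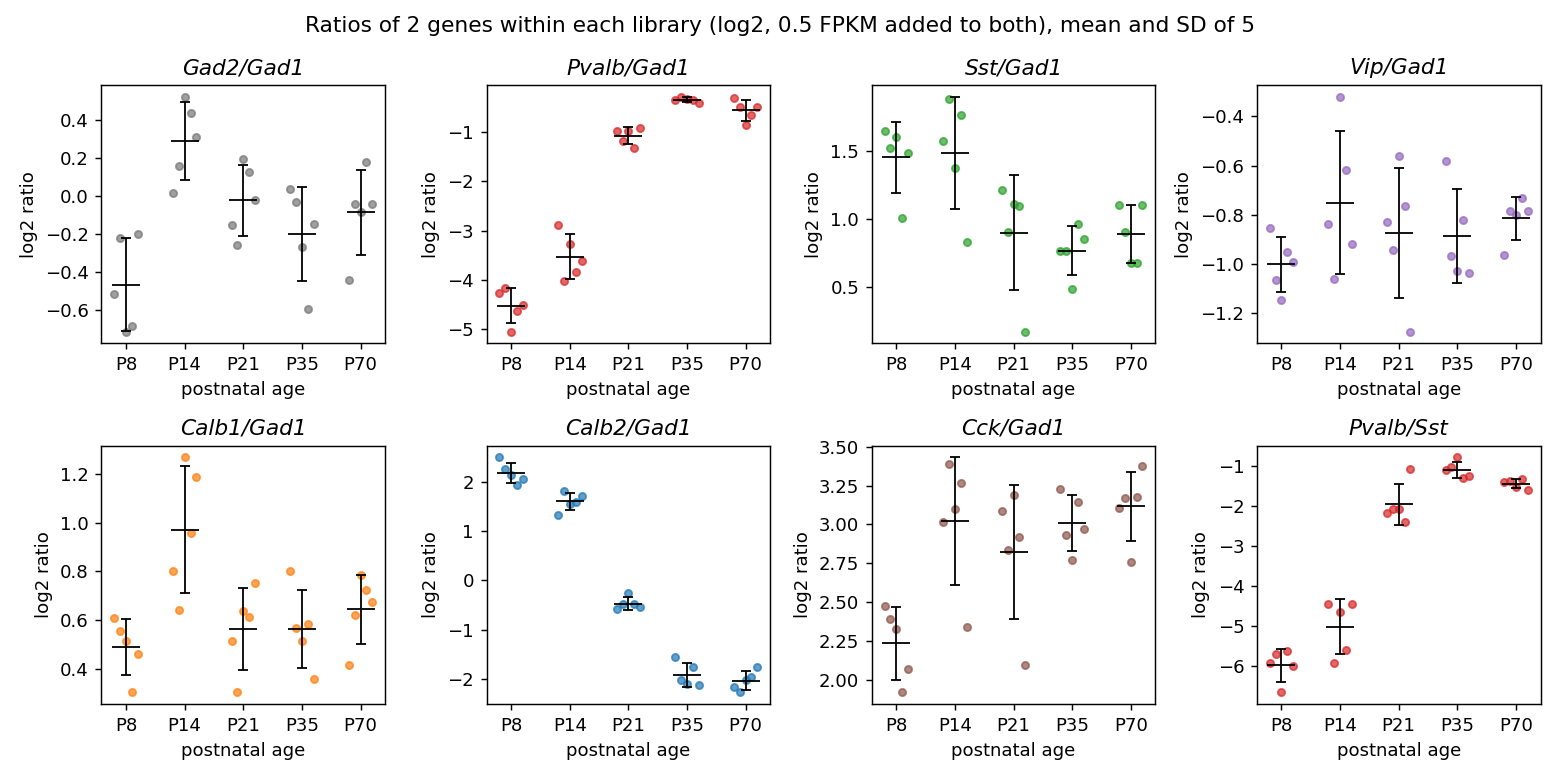
Log2 ratio (y axis, 0.5 FPKM added to both genes) of 2 genes within each library at each age (x axis); points are libraries, bars the mean and SD of 5. Pvalb/Gad1 climbs without overlap up to P35, where its 5 libraries nearly coincide, and Calb2/Gad1 declines without overlap over the same ages.

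Some libraries were high or low at many of these genes at once. P35 replicate 4 was the highest of its age at 7 of the 8 genes and the lowest at Gad2, with a median of 0.43 log2 units above the other 4. P70 replicate 3 was the lowest of its age at 6 genes, and P8 replicate 3 the highest at 5 and the lowest at Pvalb. P21 replicate 5 was the highest of its age at Gad1, Gad2, Pvalb, Calb1 and Calb2 and the lowest at Sst, Vip and Cck. Its depth was also the lowest of all, 0.387 of the median library, and the part of depth in this pattern was not tested. Sst and Cck ranked the 5 libraries in the same order at P14 (replicates 2, 1, 4, 3, 5) and again at P21 (replicates 1, 3, 2, 4, 5), but not at the other 3 ages. Without P35 replicate 4 and P70 replicate 1, left out together after the values were seen, the numbers of genes passing each step were the same as with all libraries.

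Depth could be read from the table in part. The relative depth of the libraries ran from 0.387 to 1.31 of the median, and 5 of the 8 genes had values that were whole multiples of 1 read. Calb1 had 855 to 3092 reads per library, Gad2 495 to 2119, Vip 231 to 909, Sst 241 to 1703 and Calb2 95 to 4353, the lowest at P70. For Gad1, Pvalb and Cck whole reads were not recovered, so the number of reads behind the low P8 values of Pvalb is unknown. FPKM totals per library ran from 472548 to 1649378, and 12693 to 13468 gene IDs per library reached 1 FPKM.

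The time courses of these genes were shared with others to different degrees. Over the 25 libraries, among 8155 other gene IDs with a mean of at least 5 FPKM, 238 had a Pearson correlation of log2(FPKM + 0.5) of at least 0.9 with Pvalb and 293 one of -0.9 or below. The libraries share the ages, so these values describe likeness and carry no test. ENSRNOG00000013484 was most like Pvalb (r = 0.982), with 0.5 ± 0.22 FPKM in P8, 2.8 ± 0.368 in P14, 14.4 ± 3.06 in P21, 28.2 ± 4.64 in P35 and 27.4 ± 3.09 in P70 libraries (SD, n = 5). ENSRNOG00000022116 followed (r = 0.976), from 0.914 ± 0.21 FPKM at P8 to 8.48 ± 0.748 at P70 (SD, n = 5). No name goes with either ID in the files. The same count at 0.9 or above was 282 for Calb2, 265 for Cck, 165 for Vip, 94 for Gad1, 92 for Gad2, 72 for Calb1 and 1 for Sst.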

How the data were processed

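RNA from medial prefrontal cortex was depleted of ribosomal RNA and sequenced as single-end reads, per the labels' protocols. The authors deposited FPKM values in a single table of Ensembl gene IDs by libraries. Reads were aligned to rat build rn4 with GSNAP per the labels' protocols, and the submitters' processing notes name BWA 0.6.1, bedtools and Cufflinks with no role. Not given in the sources used here are annotation, strand setting and filters, so overlapping or antisense genes cannot be told apart. FPKM is relative: abundant transcripts in a library lower all others.

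Libraries were grouped by age, with replicate numbers in accession order. The 8 genes, the lists and the alternatives were chosen with earlier results of these data known. limma 3.58.1 in R 4.3.3 was fitted to log2(FPKM + 0.5) of 14128 gene IDs, with 1 mean per age, a trend with mean level and Benjamini-Hochberg adjustment. Ratios within libraries were compared as log2 ratios, with 0.5 FPKM added to both genes, by exact two-sided permutation. Named were all 8 genes and the 2 gene IDs most like Pvalb, the gene with the largest rise. Relative depth came from ratios of sparse gene IDs, and reads were called whole within 0.05 reads. Scripts were tested on simulated data. Alternatives were other pseudocounts, filters, scalings and blocks, fits of 10 libraries, and libraries left out.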

Additional observations from a re-analysis of the deposited data

Results flagged for a closer look

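Each set of 5 libraries was examined for one that stood well away from the rest. Of 80 such sets, 40 of FPKM and 40 of ratios, 6 held one, and chance would give about 4. Parvalbumin transcript was low in P8 replicate 3 (Pvalb 0.146 FPKM, the rest 0.304 to 0.367) and high in P14 replicate 1 (3.61 FPKM, the rest 1.16 to 1.81). Calb1 was high in P21 replicate 5, with 68.5 FPKM where the rest had 44.0 to 49.9. P35 replicate 4 had 84.9 FPKM of Sst, the rest 49.6 to 59.1, and 386 FPKM of Cck, the rest 246 to 282. The ratio of Pvalb to Sst was 0.469 in P21 replicate 5, the rest having 0.181 to 0.231. Without P21 replicate 5, Pvalb against Sst rose by 1.09 log2 units from P21 to P35 and passed (exact permutation test, adjusted p = 0.0212), where with all libraries it differed by 0.87 and did not (0.0668).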

How the results depend on the processing

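The numbers of genes passing each step stayed within 1.5 times those reported, with these exceptions. From P8 to P14, 4 genes passed with FPKM totals made equal. From P21 to P35, 0 passed with totals made equal, and 2 passed with quantile normalization, a pseudocount of 1, median-of-ratios scaling or without P14 replicates 2 and 5 and P21 replicate 5. Leaving out 1 library at a time gave 6 to 7 genes from P8 to P14, 2 to 3 from P14 to P21, 1 from P21 to P35, 0 from P35 to P70, 7 from P8 to P70 and 14 to 21 ratio comparisons. The F-test over the 5 ages passed for 6 genes with totals made equal and for all 8 under quantile normalization and with median-of-ratios scaling, against 7. Between P8 and P70 the median log2 change over the gene IDs tested was -0.16 on the deposited scale, -0.05 with totals made equal, -0.02 under quantile normalization and -0.01 with median-of-ratios scaling. From P8 to P14 it was 0.18 with totals made equal, against -0.06 as deposited.

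With the second title number as a replicate block, 6 genes passed from P8 to P14, 2 from P14 to P21 and 7 from P8 to P70. Libraries sharing that number at different ages did not deviate together: of 53 pairs, 8 had a correlation over 0.1 and the median was -0.042, against 0.003 for the 197 other pairs. With this block Calb2 was at 0.022 from P8 to P14, Vip at -0.045 from P21 to P35 and Sst at 0.056 from P35 to P70. The first title number groups libraries within an age, and 0 of these numbers recur at more than 1 age. Libraries sharing it were alike, with a consensus correlation of 0.33. The main fit and the permutation tests take the libraries as independent and leave this likeness out. With a random block for the first number, 6 genes passed the first step and 2 the second, against 7 and 3 in the main fit.

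Other signs that turned were all of changes that did not pass; the cause was not tested. With totals made equal, Calb2 was at 0.21 from P8 to P14. Gad2 was at -0.23, Vip at -0.038 and Cck at -0.12 from P14 to P21. From P35 to P70 Gad2 was at 0.076, Calb1 at 0.042, Sst at 0.089, Vip at 0.033 and Cck at 0.0698. After quantile normalization Calb2 was at 0.0265 from P8 to P14, Calb1 at 0.12 from P14 to P21, and Gad2 at 0.013, Calb1 at 0.0036, Sst at 0.042 and Cck at 0.072 from P35 to P70. After median-of-ratios scaling Calb1 was at 0.094 from P14 to P21. From P21 to P35, Calb1 was at -0.0099 with a random block for the first title number, and Vip at -0.018 without P14 replicates 2 and 5 and P21 replicate 5. Without P35 replicate 4 and P70 replicate 1, chosen after seeing the data, Gad1 was at -0.0405, Calb1 at -0.043 and Vip at -0.069 in that step.

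Leaving out 1 library at a time moved Calb2 from -0.12 to 0.024 in the step from P8 to P14 and Calb1 from -0.12 to 0.0699 in that from P14 to P21. From P21 to P35 the ranges were -0.0405 to 0.10 for Gad1, -0.043 to 0.14 for Calb1 and -0.069 to 0.087 for Vip. From P35 to P70 they were -0.0675 to 0.0054 for Gad2, -0.15 to 0.0083 for Calb1, -0.15 to 0.10 for Sst, -0.14 to 0.015 for Vip and -0.13 to 0.086 for Cck. Log2 ratios ranged from -0.079 to 0.20 for Sst/Gad1 from P8 to P14, and from P21 to P35 from -0.063 to 0.054 for Calb1/Gad1 and -0.11 to 0.066 for Vip/Gad1. Depth could be recovered only in relative terms, and reads behind Gad1, Pvalb and Cck are unknown.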
